A study of Mus musculus with 80 samples.

Results

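The 9 genes described here code for the main scaffold proteins of the postsynaptic density, namely Dlg2, Dlg3, Dlg4, Dlgap1, Dlgap3, Shank1, Shank2, Shank3 and Homer1. They were picked by name from a table of 25160 genes, and all 9 were listed. Their levels were read in medium spiny neurons (MSN), the projection neurons of the striatum, of adult mice heterozygous for a Drd1a-TdTomato and a Drd2-EGFP reporter. Both reporters are BAC transgenes, and the mice were double-transgenic, so every animal carried both. The group of a cell rests on the color by which it was sorted from the dorsomedial striatum. The D1 MSN are the 40 cells sorted as Drd1a-TdTomato, whose axons form the direct pathway. The D2 MSN are 38 cells sorted as Drd2-EGFP, whose axons form the indirect pathway, and 2 further Drd2-EGFP cells with high Chat were set apart as cholinergic interneurons. Values are TPM, which by the definition of the unit are scaled for gene length and to a total per cell. Levels are set side by side between genes on that basis, and where the reads lie within each gene was not checked.

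The postsynaptic density is the protein sheet beneath the membrane of an excitatory synapse, and in an MSN it lies in the spine heads that receive cortical and thalamic input. Dlg proteins hold glutamate receptors at the membrane, Dlgap proteins tie them to Shank proteins, and Shank proteins form with Homer a deeper mesh that reaches metabotropic glutamate receptors and the actin of the spine. Homer1 is made in long forms that cross-link this mesh and in a short form, Homer1a, which neuronal activity induces and which loosens it. The TPM of a gene sum its forms, so the short and long forms were not told apart. In mice, loss of Dlgap3 or of Shank3 is known to alter synapses of the striatum and to cause excessive grooming.

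The labels name no animal, while the study states 3 animals, so each subtype was taken as 1 sample. No test was made from cells, and differences are descriptions set beside the same difference within each of the large plates, FACS051_5 (18 D1 MSN and 16 D2 MSN) and FACS086_4 (21 and 19). A cell counted as positive for a gene, and the gene as found in it, at more than 1 TPM, and each share comes with its 95% interval by the exact Clopper-Pearson method, which covers no error beyond counting. A D1 MSN was positive for 648 to 8657 genes (median 5722) and a D2 MSN for 1215 to 7942 (median 4928). The study gives a median depth over its cells, but reads cannot be counted back from TPM, so the depth of each cell is unknown. The study also counts fewer cells as usable than are listed here. It does not name the others, so all listed cells were kept. Of the markers of the labelled cells, 8 of 8 general MSN genes were found in 50% or more of the cells of both subtypes. Drd1 averaged 195 TPM in D1 and 0.456 TPM in D2 MSN, and Drd2 0.17 and 50 TPM. The D1 MSN in well D04 of plate FACS051_5 went against its label, with Drd1 at 2.03 TPM and the astrocyte gene Aldoc at 10427 TPM, and the D1 MSN in well B02 of plate FACS086_4 had the fewest genes and Drd1 at 0.

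For a pair of members, the sequence just before the transcription start is shown. Of the 9 genes, Homer1 had the highest mean level and Shank3 the largest fold between the means of the subtypes. The sequences are those of RefSeq for GRCm38.p6, 250 bases long, plus strand, 5′ to 3′. For Homer1, chr13:93303507-93303756, capitals mark TGACG, the first letters of the cAMP response element to which CREB binds. For Shank3, chr15:89499358-89499607, capitals mark CCGCCC, the reverse complement of the GC box GGGCGG to which Sp1 binds.
Homer1: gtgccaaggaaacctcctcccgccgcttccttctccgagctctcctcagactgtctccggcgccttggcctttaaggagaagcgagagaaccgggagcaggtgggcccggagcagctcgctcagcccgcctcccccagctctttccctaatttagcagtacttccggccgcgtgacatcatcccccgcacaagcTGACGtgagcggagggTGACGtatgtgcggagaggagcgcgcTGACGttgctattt
Shank3: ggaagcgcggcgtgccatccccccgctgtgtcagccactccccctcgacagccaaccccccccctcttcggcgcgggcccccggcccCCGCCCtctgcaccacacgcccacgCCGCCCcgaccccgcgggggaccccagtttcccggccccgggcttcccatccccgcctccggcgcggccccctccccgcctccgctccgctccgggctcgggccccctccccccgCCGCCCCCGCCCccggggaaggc
On either strand, the Homer1 window held 3 copies of TGACG and none of GGGCGG, and the Shank3 window held 4 copies of GGGCGG and none of TGACG. Of 32851 mouse promoter windows of the same length, 0.688% held at least 3 copies of TGACG and 4.09% at least 4 copies of GGGCGG. The Homer1 window was 62.4% G and C, and the Shank3 window 82.4%. Over the members, 7 of 9 genes had a total of 14 such windows, and Shank1 and Shank2 had none in the table used. Homer1 had another window, chr13:93307784-93308033, which held neither TGACG nor GGGCGG, so the printed window is the richer in TGACG. The shares over all promoter windows count single windows and make no allowance for this. Besides the printed Homer1 window, only 1 window of Dlg3 and 1 of Dlg4 held TGACG, a single copy each. These matches describe the letters and do not show binding.

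The genes differ widely in span. By GENCODE M21 on GRCm38, all 9 lie on the plus strand and 3 of them on chromosome 7. Dlg2 spans 1973 kb of chromosome 7 from position 90476672 to 92449247, and Dlgap1 spans 852 kb of chromosome 17 from 69969073 to 70821413. Shank2 spans 423 kb of chromosome 7 from 144001928 to 144424494, and Homer1 105 kb of chromosome 13 from 93299635 to 93405129, so the printed Homer1 window lies inside the annotated span. Dlgap3 covers 67.8 kb of chromosome 4 (127169204 to 127237022) and Shank3 60.6 kb of chromosome 15 (89499623 to 89560261). Dlg3 covers 50.7 kb of chromosome X (100767722 to 100818410), Shank1 50.3 kb of chromosome 7 (44310253 to 44360572) and Dlg4 30.6 kb of chromosome 11 (70016942 to 70047522). Their coding transcripts hold between 3 exons (in Shank3) and 28 exons (in Dlg2), and a value per gene does not tell them apart.

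Homer1 was the most abundant of the 9, followed by Dlg2. Over the 78 MSN, mean levels were 183 TPM for Homer1, 89.65 TPM for Dlg2, 30.2 TPM for Dlg3 and 19.7 TPM for Dlgap1. Shank3 averaged 12.9 TPM, Dlgap3 10.6 TPM, Dlg4 9.69 TPM, Shank2 4 TPM and Shank1 1.3 TPM. Homer1 thus had a mean above that of 97.8% of all listed genes, Dlg2 above 95.0%, Dlg4 above 69.2% and Shank1 above 41.0%. Together the 9 genes summed to a median of 295 TPM per D1 MSN (2.37 to 1318) and 329 TPM per D2 MSN (2.16 to 810). Homer1 made up 52.7% of the members' mean sum in D1 and 48.2% in D2 MSN, and Dlg2 24.1% and 25.7%.

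The order of the means did not hold within every cell for any neighbors. Homer1 was above Dlg2 in 53 of 78 MSN, and Dlg2 was above Dlg3 in 53 of 78. Dlg3 exceeded Dlgap1 in 41 cells and Dlgap3 exceeded Dlg4 in 38, so these neighbors were close to evenly matched. Shank3 was below Dlgap3 in 42 cells and above it in 21, although its mean was higher, and Shank2 was below Shank1 in 63 cells and above it in 15. For Shank2 and Shank3 the mean was carried by few cells. The 5 highest MSN held 82.7% of the summed Shank2 level and 66.9% of the summed Shank3 level, against 27% for Homer1.

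**Figure D1:**
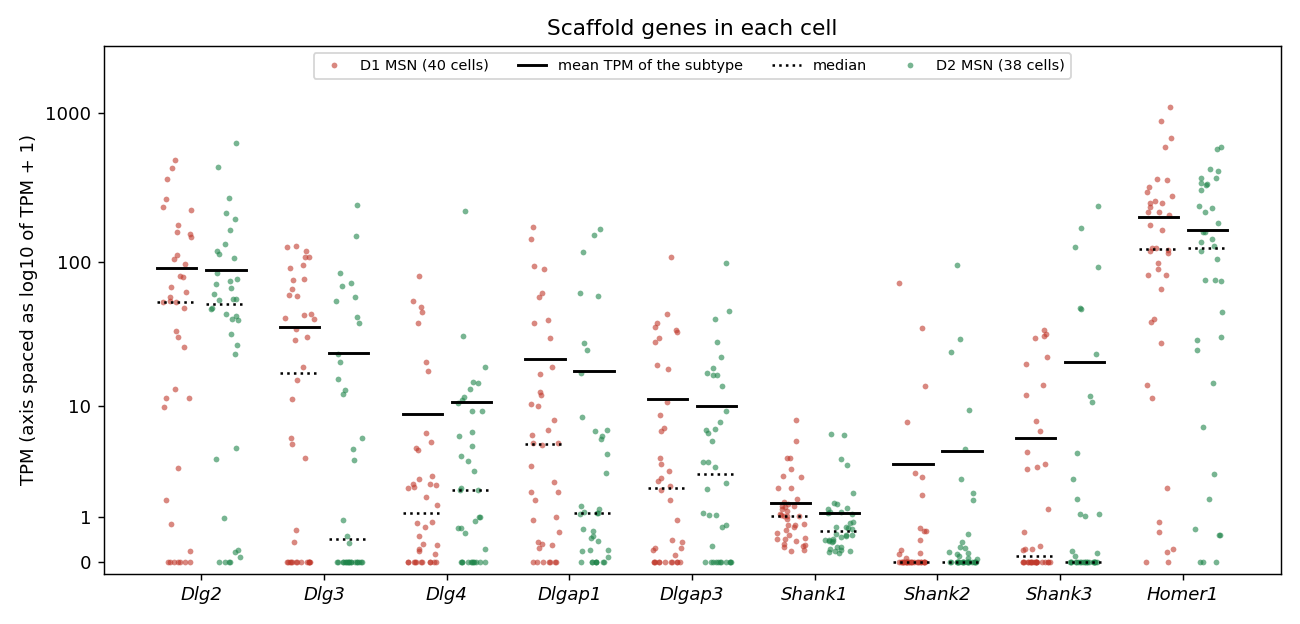
TPM of the 9 scaffold genes in each of 40 D1 MSN (red) and 38 D2 MSN (green), on an axis spaced as log10 of TPM plus 1, with solid lines at the mean and dotted lines at the median of each subtype. Points of both subtypes overlap for every gene, Homer1 has the highest means (200.2 and 165 TPM), and for Shank3 6 D2 MSN lie above every D1 MSN.

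Dlg2, known as PSD-93 or chapsyn, was the leading Dlg gene among the members. In D1 MSN it ranged from 0 to 485 TPM with a median of 53.5, and in D2 MSN from 0 to 630 TPM with a median of 51.8. Of the D1 MSN, 31 of 40 were positive (77.5%, 61.5 to 89.2%), as were 30 of 38 D2 MSN (78.9%, 62.7 to 90.5%). Means were 91.35 ± 120 TPM (SD between cells, n = 40) and 87.85 ± 126 TPM (n = 38). The subtypes overlapped almost fully, with a log2 fold of 0.06, the ratio of mean TPM plus 1 in D1 to that in D2 MSN. Within the plates it was -0.11 and 0.18, of opposite sign.

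Dlg3, which codes for SAP102, a scaffold known from immature synapses, ranged from 0 to 129 TPM in D1 MSN (median 17.3) and from 0 to 244 TPM in D2 MSN (median 0.413). Cells positive for it were 25 of 40 D1 MSN (62.5%, 45.8 to 77.3%) against 17 of 38 D2 MSN (44.7%, 28.6 to 61.7%), and these intervals overlap. Means were 36 ± 42.2 and 24 ± 48.8 TPM, and the log2 fold was 0.56. Most of this gap lay on plate FACS086_4, where the fold was 1.02, while it was 0.01 on FACS051_5. Without the highest cell of each subtype the fold over all plates was 0.86. Taken as the mean of log2 of TPM plus 1 over cells, the difference was 1.12. The 2 highest cells of all were D2 MSN, so a higher mean in D1 MSN went with a lower maximum.

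Dlg4 codes for PSD-95, the scaffold after which the postsynaptic density is often recognized. Its mean was lower than those of Dlg2 and Dlg3 in both subtypes, but in D2 MSN its median was above that of Dlg3 (0.413 TPM). Values of Dlg4 ran from 0 to 80.5 TPM in D1 MSN (median 1.13) and from 0 to 221 TPM in D2 MSN (median 2.02). There were 20 positive D1 MSN of 40 (50.0%, 33.8 to 66.2%), beside 20 positive D2 MSN of 38 (52.6%, 35.8 to 69.0%). Means were 8.78 ± 18.4 and 10.7 ± 35.6 TPM. The log2 fold of -0.25 changed sign between the plates, at 0.49 on FACS051_5 and -0.85 on FACS086_4. Once the highest cell of each subtype was left out, among them the D2 MSN at 221 TPM, the fold turned to 0.41. Dlg4 made up 6.45% of the summed Dlg2, Dlg3 and Dlg4 level in D1 and 8.69% in D2 MSN. Where any of the trio was found, it was the highest in 3 of 35 D1 and 5 of 36 D2 MSN.

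Dlgap1 codes for GKAP, which binds the guanylate kinase-like domain of Dlg proteins and the PDZ domain of Shank proteins. It ranged from 0 to 173 TPM in D1 MSN (median 5.11) and from 0 to 167 TPM in D2 MSN (median 1.11). Of the D1 MSN, 26 of 40 were positive (65.0%, 48.3 to 79.4%), as were 21 of 38 D2 MSN (55.3%, 38.3 to 71.4%). Means were 21.5 ± 39.7 and 17.9 ± 41 TPM, and the log2 fold was 0.26, with 0.04 and 0.39 within the plates. The second highest D1 MSN, at 143 TPM, was the cell in well D04 with high Aldoc, and without it and the cell in well B02 the fold was 0.08. The 5 listed astrocyte markers summed to 13081 TPM in that cell, against a median of 1.06 TPM over the D1 MSN, while its Dlg2 was at 0 and its Homer1 at 0.218 TPM. The part of astrocyte RNA in its Dlgap1 level was not tested.

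Dlgap3, the SAPAP3 gene, ranged from 0 to 107 TPM in D1 MSN (median 2.12) and from 0 to 98.4 TPM in D2 MSN (median 2.85). Cells positive for it were 22 of 40 D1 MSN (55.0%, 38.5 to 70.7%) against 24 of 38 D2 MSN (63.2%, 46.0 to 78.2%). Means were 11.2 ± 20.5 and 10 ± 18.6 TPM. The log2 fold of 0.14 stood beside -0.48 on FACS051_5 and 0.92 on FACS086_4, so neither subtype was higher on both plates. In cells positive for either Dlgap member, Dlgap1 was the higher in 20 of 31 D1 MSN and Dlgap3 in 17 of 29 D2 MSN.

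By the summed mean of its members, the Shank family was the lowest of the 4, at 10.7 TPM in D1 and 26.2 TPM in D2 MSN. The Dlgap members summed to 32.7 and 27.9 TPM. Shank3 by itself had a higher mean over the MSN than Dlgap3 and Dlg4. In D1 MSN, however, its mean of 5.7 TPM was below those of Dlgap3 (11.2 TPM) and Dlg4 (8.78 TPM). Shank2 was at exactly 0 in 25 of 40 D1 MSN and 20 of 38 D2 MSN, with medians of 0 and highest cells of 72.5 and 95.7 TPM. Only 7 D1 MSN (17.5%, 7.34 to 32.8%) were positive, beside 8 D2 MSN (21.1%, 9.55 to 37.3%), with means of 3.5 ± 12.7 and 4.53 ± 16.4 TPM. The log2 fold was -0.30, and -0.46 and -0.30 within the plates. A gene listed at 0 in a cell may still have been transcribed there, since the depth of each cell is unknown.

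By the log2 fold of means, Shank3 had the largest difference between the subtypes among the 9 genes, and this difference rested on few cells. In D1 MSN it ranged from 0 to 34.3 TPM with a median of 0.0975, and in D2 MSN from 0 to 237 TPM with a median of 0. There were 15 positive D1 MSN of 40 (37.5%, 22.7 to 54.2%), beside 15 positive D2 MSN of 38 (39.5%, 24.0 to 56.6%), so the share of positive cells was nearly equal. Among positive cells the median level was also nearly equal, at 12 TPM in D1 and 11.8 TPM in D2 MSN, while their means were 15.1 and 52.1 TPM. The difference lay in the highest cells. The highest 6 D2 MSN, at 47.9, 49.1, 93.1, 127, 168 and 237 TPM, were all above the highest D1 MSN, 3 of them on each large plate. Mean levels were 5.7 ± 10.4 and 20.6 ± 51.7 TPM, for a log2 fold of -1.69. Within the plates the fold was -1.71 and -1.80. Taken as the mean of log2 of TPM plus 1 over cells, which weighs high cells less, the difference was -0.25, and without the highest cell of each subtype the fold was -1.40.

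In the 6 D2 MSN with the most Shank3, the summed level of 8 MSN markers was 1623 to 7865 TPM. That of 5 D2 MSN markers was 3945 to 28730 TPM and that of 5 D1 MSN markers 0.929 to 1083 TPM. Over all D2 MSN the D1 marker sum had a median of only 18.15 TPM and a highest value of 1218 TPM. The highest sums of markers of other cells were as follows. The 5 cholinergic markers summed to at most 0.409 TPM, the 5 astrocyte markers to at most 6.42 TPM, the 5 oligodendrocyte markers to at most 25.1 TPM and the 2 microglial markers to at most 0.936 TPM. Over all D2 MSN the highest of these sums were 10.8, 45.5, 107 and 20.8 TPM. The 2 endothelial markers summed to 13.8 to 40.8 TPM in the 6 cells and to 13.8 to 277 TPM over all D2 MSN, where Pecam1 averaged 42.2 TPM and Flt1 0.287 TPM. These 6 cells were positive for 3259 to 6590 genes, within the range of all D2 MSN. In the same cells Dlg2 ran from 0 to 194 TPM and Homer1 from 0.518 to 335 TPM, so that neither was high in all of them.

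Shank1 was the only member above 0 in every one of the 78 MSN, at low levels from 0.142 to 7.85 TPM. Its mean was 1.48 ± 1.56 TPM in D1 (median 1.02) and 1.11 ± 1.43 TPM in D2 MSN (median 0.602). More than 1 TPM was reached by 22 of 40 D1 MSN (55.0%, 38.5 to 70.7%) and by 13 of 38 D2 MSN (34.2%, 19.6 to 51.4%). The log2 fold was 0.23, and -0.09 and 0.50 within the plates. Among the 2276 genes that averaged from 1 to under 2 TPM, the median gene was above 0 in 9 MSN and reached 53.8 TPM in its highest cell. Of all genes with a mean under 2 TPM, 6 were above 0 in every MSN, namely Bend4, Gm11225, Gm4034, Gm7389, Lrp4 and Shank1, named after their values were seen. How the TPM were made is not given in the sources used here, so what such even low values count is unknown.

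Few cells were positive for both Shank2 and Shank3, each of which was itself found in a minority of cells. Shank2 was found in 15 MSN and Shank3 in 30. The overlap due from these shares alone was not computed, so the count is not read as a trait of the pair. Of the 78 MSN, 39 were positive for either (50.0%, 38.5 to 61.5%) and 6 for both (7.69%, 2.88 to 16%). At least 1 of the 3 Shank genes was found in 30 of 40 D1 and 24 of 38 D2 MSN. Shank3 gave 53.4% of the summed Shank mean in D1 and 78.5% in D2 MSN.

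Homer1 was the member found in the most cells. It ranged from 0 to 1099 TPM in D1 MSN (median 123) and from 0 to 592 TPM in D2 MSN (median 124). Of the D1 MSN, 34 of 40 were positive (85.0%, 70.2 to 94.3%), as were 32 of 38 D2 MSN (84.2%, 68.8 to 94.0%). Means were 200.2 ± 242 and 165 ± 168 TPM, and medians nearly coincided. The log2 fold was 0.28, and 0.10 and 0.46 within the plates. At the upper end, 4 D1 MSN exceeded the highest D2 MSN. Without the highest cell of each subtype the fold was 0.21. Taken as the mean of log2 of TPM plus 1 over cells, the difference was 0.35. In the cholinergic interneurons Homer1 was at 21.3 TPM in one and 0 in the other, and 59 of 78 MSN were above the higher of these.

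The folds of the members were set beside those of all genes. Only Shank3, 1 of 9, had a log2 fold of at least 1 in size, where 35.8% of the 15671 genes averaging 1 TPM or more did. In the direction of D1 MSN it was 0 of 9 members against 21.1% of genes, and in that of D2 MSN 1 of 9 against 14.8%. At 10 TPM or more on average, a level that 6 members reach, 22.0% of genes passed the fold. A fold of at least 1 toward D2 MSN over all cells and on both large plates, as Shank3 had, was seen for 4.30% of genes. The median log2 fold was 0.14 over the 9 members and 0.09 over all genes. By the sign of the fold 6 members were higher in D1 MSN and 3 in D2 MSN, and 5 of 9 had the same sign on both large plates. The matching shares over all genes were not computed, so these counts by sign are not read as a trait of the members.

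**Figure D2:**
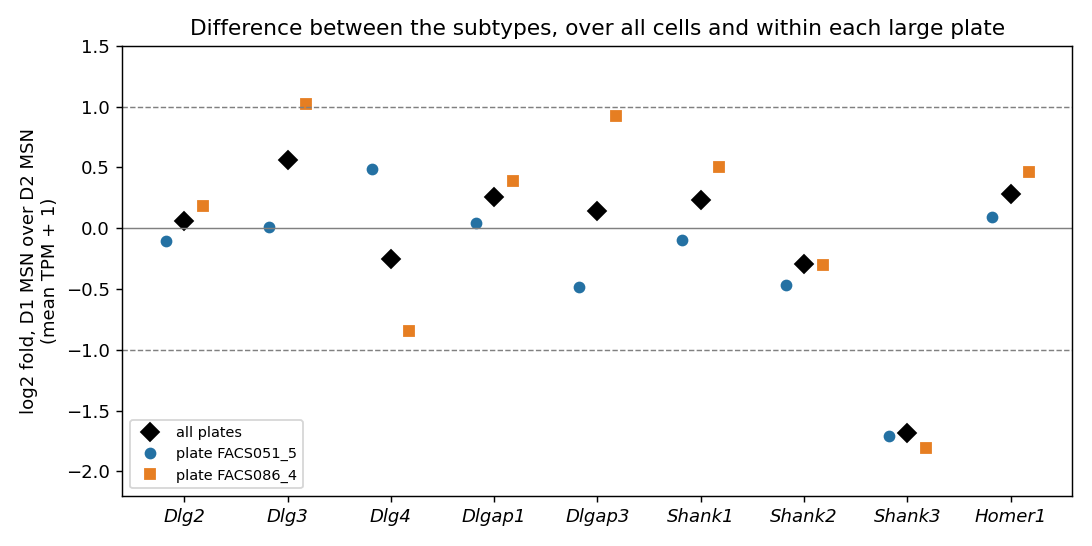
Log2 fold (mean TPM plus 1, D1 against D2 MSN) for each scaffold gene, from all plates (diamonds), plate FACS051_5 (circles) and plate FACS086_4 (squares), with dashed lines at 1 and -1. Only Shank3 lies beyond -1 in all 3 (-1.69, -1.71 and -1.80), and 4 genes change sign between the plates.

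The close relatives of the members, Dlg1, Dlg5, Dlgap2, Dlgap4, Dlgap5, Homer2 and Homer3, change the make-up of the families. Dlg1, which codes for SAP97, averaged 41.9 TPM in D1 and 62.5 TPM in D2 MSN, second to Dlg2. With it, Dlg2 gave 51.3% of the summed mean of Dlg1 to Dlg4 in D1 and 47.5% in D2 MSN. Dlgap4 averaged 64.7 and 45.9 TPM and Dlgap2 50.4 and 57.2 TPM, both above Dlgap1 and Dlgap3 in both subtypes. Dlgap3 was 7.58% of the summed Dlgap1 to Dlgap4 mean in D1 and 7.67% in D2 MSN. Homer1 held 96.5% and 93.7% of the summed Homer mean, with Homer2 at 2.34 and 0.042 TPM and Homer3 at 4.99 and 11.1 TPM. Dlg5 was at 0 in every MSN and at 16.9 TPM in 1 cholinergic interneuron. Of the 6 relatives averaging 1 TPM or more, Homer2 passed the fold toward D1 MSN (1.68, and 2.39 and 0.50 within the plates) and Homer3 toward D2 MSN (-1.01, and 0.24 and -1.16, of opposite sign). Over all genes, 35.8% passed the fold. Homer2 was found in 3 D1 and 0 D2 MSN, and Homer3 in 7 and 1.

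**Figure D3:**
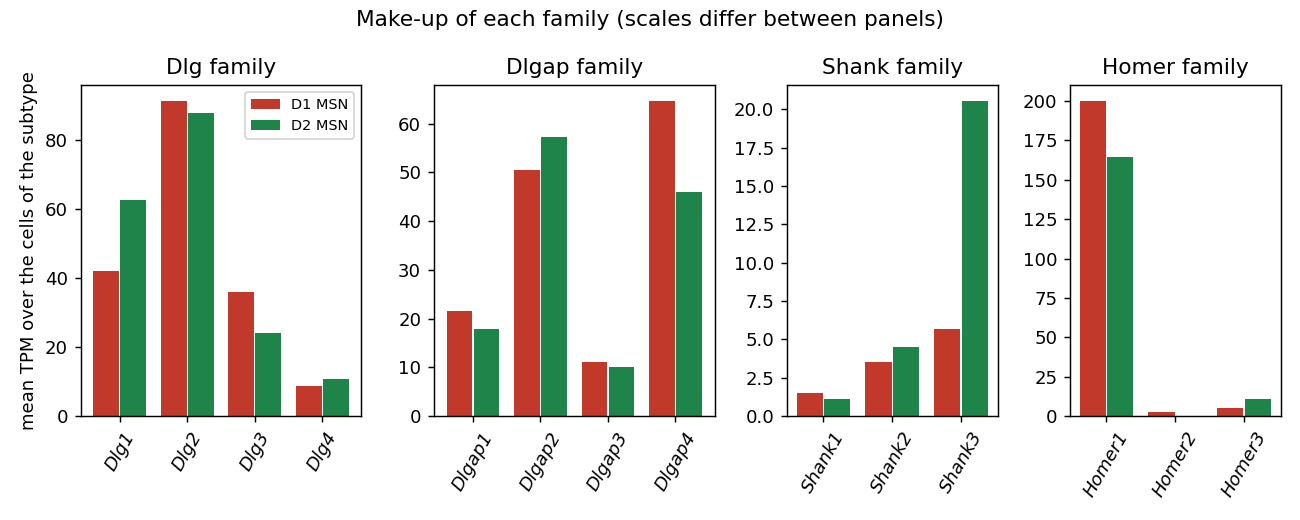
Mean TPM over the cells of each subtype for the genes of the Dlg, Dlgap, Shank and Homer families, with a panel and its own axis from 0 per family. Each bar is the mean of 1 sample, with no error bar. Dlg2, Dlgap4, Shank3 and Homer1 lead in D1 MSN, and Dlg2, Dlgap2, Shank3 and Homer1 in D2 MSN.

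The partners of the scaffolds were measured in the same cells. Of 18 genes for proteins that bind Dlg proteins or act on them, 17 averaged 1 TPM or more, and 2 passed the fold toward D1 MSN and 0 toward D2 MSN, where 21.1% and 14.8% of all genes did. Iqsec1, an Arf exchange factor, averaged 24.6 TPM in D1 and 7.47 TPM in D2 MSN (log2 fold 1.59, and 1.91 and 0.75 within the plates). Begain, which binds the guanylate kinase-like domain of PSD-95, averaged 17.5 and 7.5 TPM (1.12, and 0.12 and 3.69 within the plates). It was found in 20 D1 and 5 D2 MSN. Zdhhc2, an enzyme that adds palmitate to PSD-95, averaged 22.7 and 12.7 TPM (0.79, and -0.04 and 1.5 within the plates).

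Of 14 partners of Dlgap, Shank and Homer proteins, 14 averaged 1 TPM or more. Beside 35.8% of all genes, 1 of these partners passed the fold. This was Arhgef7, the exchange factor beta-PIX that binds Shank, with 34.6 TPM in D1 and 15.8 TPM in D2 MSN (1.08, and 0.05 and 3.05 within the plates). Sorbs2 averaged 102 and 172 TPM (-0.75, and -0.96 and -0.28 within the plates), and Abi1, a member of the WAVE complex, 48.7 and 72.2 TPM (-0.56, and -0.44 and -0.76). Where 35.8% of all genes passed the fold, 0 of 13 receptors and adhesion proteins anchored at the density did, in either direction. The largest folds among those averaging 10 TPM or more were 0.84 for Gria4 (0.35 and 1.07 within the plates), 0.73 for Nlgn1 (-0.30 and 1.28, of opposite sign) and 0.65 for Grin2a (1.03 and 0.51). The median fold was 0.04 over the Dlg partners, -0.06 over the partners of Dlgap, Shank and Homer and 0.06 over the receptors, beside 0.09 over all genes.

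How many scaffold genes a cell showed followed how many genes it showed at all. The median D1 MSN and the median D2 MSN were each positive for 5 of the 9 members, and cells of either subtype ran from 1 to 9. The number of members found and the number of all genes found had a Spearman's rho of 0.76 over 78 MSN and of 0.75 within each subtype. The depth of each cell is unknown and may enter both numbers, so these rho values are descriptions. All 9 members were found in 2 MSN, 1 of each subtype, and a single member in 4 MSN. All 4 families were represented in 19 of 40 D1 MSN (47.5%, 31.5 to 63.9%), beside 15 of 38 D2 MSN (39.5%, 24.0 to 56.6%). Dlg2 and Homer1 were found together in 29 D1 and 26 D2 MSN.

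**Figure D4:**
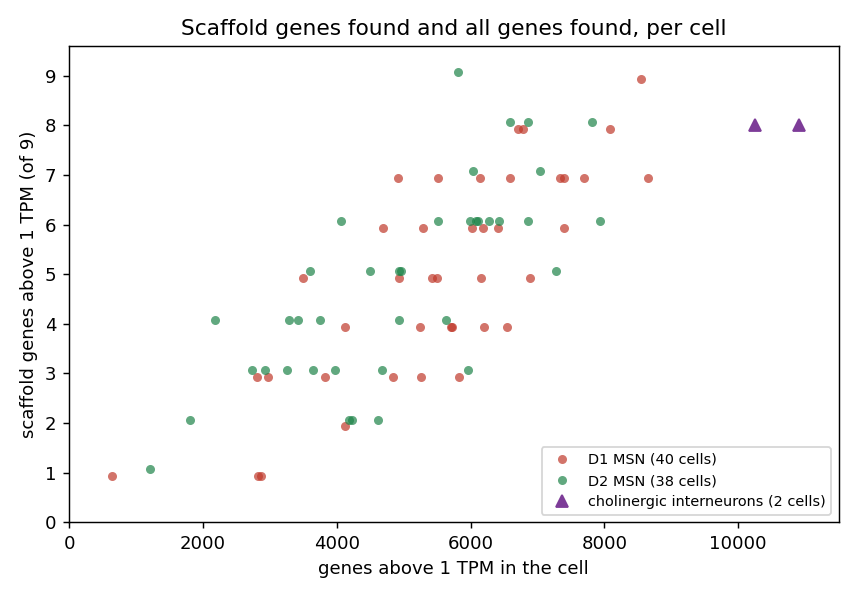
Number of the 9 scaffold genes above 1 TPM in a cell against the number of all genes above 1 TPM, for D1 MSN (red), D2 MSN (green) and the 2 cholinergic interneurons (triangles). Cells with more genes show more scaffold genes (rho 0.76 over 78 MSN), and both interneurons show 8.

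The levels of the members varied largely apart from each other across cells. Over the 36 pairs, Spearman's rho of TPM ran from -0.14 to 0.33 with a median of 0.14. With the rank of the number of genes per cell held fixed (partial rho), it ran from -0.30 to 0.24 with a median of -0.01. The highest partial rho was that of Dlg4 and Shank2 and the lowest that of Dlg2 and Dlgap1. For Dlg4 and Shank2 it was 0.25 in D1 and 0.21 in D2 MSN, and 0.30 on FACS051_5 and 0.17 on FACS086_4. Dlg2 and Shank3 also kept their sign, at -0.26 and -0.35 in the subtypes and -0.20 and -0.39 on the plates. Some larger values did not recur between parts of the data. Partial rho of Dlg2 and Dlgap1 was -0.64 on FACS051_5 and -0.04 on FACS086_4, and that of Dlgap3 and Shank3 was 0.43 in D1 and -0.18 in D2 MSN. No relation was read from these sparse data.

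Other genes were closer. Among the 3447 genes found in 50% or more of the MSN, those most like Dlg2 by partial rho were Calb1, which codes for calbindin (0.42), Rpl27a (0.39) and Gabrd, the delta subunit of the GABA-A receptor (0.39). For Dlg3 they were Gas7 (0.48), Nanos1 (0.45) and Myt1l (0.44), and for Dlg4 Lamp1 (0.37), Negr1 (0.34) and Mdn1 (0.32). For Dlgap1 they were Abat (0.42), Tmem222 (0.41) and Mtch2 (0.41), and for Dlgap3 Gm6211 (0.36), Cdk15 (0.36) and Rbm3 (0.35). For Homer1 they were RP23-306P12.3 (0.41), Mir6240 (0.39) and Nr4a1 (0.38), the last an early response gene. The Shank genes were found in fewer cells and were not ranked. These are the highest of 3447 values per member, so part of their size comes from that choice.

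Since Homer1a is itself an early response transcript, the members were set beside 9 genes of that class averaging 1 TPM or more. Homer1 had a positive rho with each, from 0.23 to 0.45 with a median of 0.35, highest for Egr1 (0.45), Nr4a1 (0.44) and Arc (0.42). With genes per cell held fixed the range was 0.13 to 0.38 and the median 0.29, where the median over all 12062 genes found in 10 or more MSN was 0.01. For the other 8 members, medians over the same genes ran from -0.12 for Dlgap1 to 0.12 for Dlg3. Partial rho of Homer1 with Egr1 was 0.31 within D1 MSN, 0.40 within D2 MSN, 0.58 on FACS051_5 and 0.35 on FACS086_4. With Nr4a1 it was 0.29, 0.44, 0.45 and 0.30. Arc (0.39, 0.20, 0.29 and 0.33) and Fos (0.20, 0.38, 0.25 and 0.24) were likewise above 0 in each. The remaining early response genes were less even. On FACS086_4 Npas4 (-0.14) and Junb (-0.09) were below 0 and Fosb (-0.003) and Dusp1 (0.01) close to 0, and Egr3 was at -0.05 within D2 MSN. Of the early response genes themselves, 0 of 9 were past the fold toward D1 MSN, where 21.1% of all genes were, and 1 of 9 toward D2 MSN, where 14.8% were. This was Egr3, found in 4 MSN (-1.56, and -2.55 and 0.40 within the plates, of opposite sign). Among those above 10 TPM, Egr1 averaged 245 TPM in D1 and 149 TPM in D2 MSN (0.72, and 0.59 and 0.83 within the plates). Arc averaged 31.7 and 49.4 TPM (-0.63, and -1.62 and -0.06) and Nr4a1 80.5 and 65.1 TPM (0.30, and -0.02 and 0.49).

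**Figure D5:**
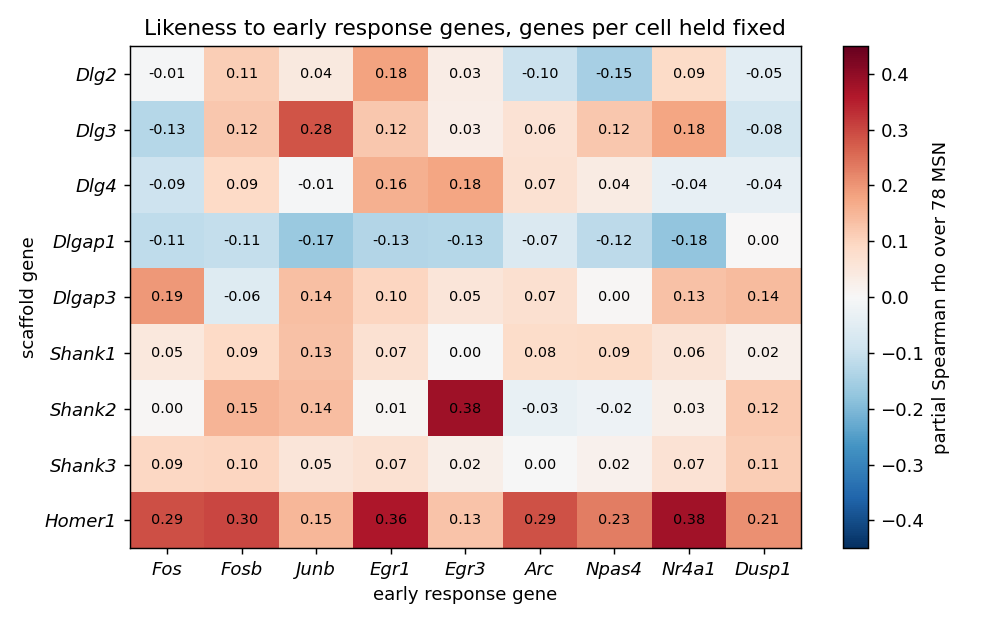
Partial Spearman's rho over 78 MSN between each scaffold gene (rows) and each early response gene (columns), with the number of genes above 1 TPM per cell held fixed, blue below 0 and red above 0. The Homer1 row is positive throughout (0.13 to 0.38), and the value of 0.38 for Shank2 and Egr3 rests on 4 MSN with Egr3 above 1 TPM.

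The 2 cholinergic interneurons, which are not MSN, showed another mix of scaffolds at 10912 and 10251 genes per cell. Both had 8 of the 9 members above 1 TPM. Dlgap1 was at 47.1 and 63.9 TPM, which 7 of 78 MSN exceeded at the higher value. Dlg2 was at 142 and 31 TPM, Dlg3 at 28 and 59.3 TPM, Dlgap3 at 5.09 and 18.6 TPM and Dlg4 at 0.345 and 9.53 TPM. Shank1 was at 2.4 and 3.54 TPM, Shank2 at 4.5 and 6.73 TPM and Shank3 at 1.86 and 2.27 TPM. Homer2 was at 67.9 and 44.9 TPM where Homer1 was at 21.3 and 0 TPM, the reverse of the order in MSN means. With 2 cells these values are given as they are.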

How the data were processed

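Single cells of the dorsomedial striatum were sorted by FACS, and cDNA of each was made with a SMARTer kit and sequenced. The authors deposited TPM per gene and cell. Their processing notes name STAR 2.5.0, featureCounts 1.5.1 and mm10/GRCm38, and the step from counts to TPM is not given in the sources used here. Reads of this kit can lie toward the 3′ end. The listed genes of a cell summed to 506588 to 958040 TPM.

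Groups came from the labels, and the D2 MSN exclude Drd2-EGFP cells whose Chat exceeded 100 TPM. The log2 fold was that of mean TPM plus 1, and folds of at least 1 in size were counted. For partial rho, a straight line in the rank of genes per cell was removed from the ranks of each gene. Members, lists and limits were chosen with earlier results of these data known. Named were all members, of each list the 3 largest folds at 10 TPM or more on average, and the 3 genes most like each member found in at least 50% of the MSN. Others are named for their values. Positions came from GENCODE M21, in which 24024 of 25160 listed names were found. The steps were tested on simulated data. Scripts ran in Python 3.11.15 with pandas 2.3.3, numpy 2.4.6, matplotlib 3.10.9 and scipy 1.17.1.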

Additional observations from a re-analysis of the deposited data

How the results depend on the processing

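Alternatives changed the pseudocount, the mean, the plates, the cells, the scaling, the detection limit and the filter, and 2 of them (the highest cell of each subtype left out per gene, and 2 D1 MSN left out) were chosen after seeing the data. The number of members past the fold was 0 with a pseudocount of 10 TPM, where the Shank3 fold was -0.96, and 2 on plate FACS086_4 alone, where Dlg3 joined at 1.02. It stayed at 1 under the other 8, but with the mean of log2 values the member was Dlg3 (1.12) and not Shank3 (-0.25). The share of all genes past the fold was 7.96% with a pseudocount of 10 TPM, 6.005% with the mean of log2 values and 22.0% for means of at least 10 TPM. The median number of members found per D2 MSN was 7 above 0 TPM and 3 above 10 TPM. The median fold of the members, 0.14, was -0.09 on plate FACS051_5 and 0.39 on FACS086_4, and lay between these under the other 8. No paired analysis was possible because no label ties a cell of one subtype to a cell of the other. Both subtypes were on each plate, so folds within the large plates are given instead. With no animal named, how far a difference varies between animals was not tested.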
